A study of Mus musculus with 14 samples.

Results

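The 6 genes described here, Arg2, Akr1c19, Mogat2, Car8, Cela1 and Tmed6, were chosen by symbol from the 55487 genes of the count table because each was lower in the libraries labelled Cep120 KO than in the controls of that line. Arg2, Akr1c19 and Mogat2 encode metabolic enzymes and Cela1 a protease, whereas Car8 and Tmed6 encode proteins with no known catalytic activity. All 6 passed the filter on low counts, as did 16876 genes in all. Since the Cep120 contrast chose them, their values in that contrast are given as a description without a test. They were tested in the Pkd1 line, which did not enter the choice.

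The libraries come from bulk RNA-seq of mouse embryonic kidney at E13.5 (days of embryonic development), from ureteric bud cells sorted by GFP. A Hoxb7-Cre transgene marks that lineage with GFP and deletes floxed alleles in it. There were 5 libraries labelled Cep120 KO (replicates 2, 4, 5, 6 and 7, homozygous in their titles), 3 controls of the Cep120 line, 3 libraries labelled Pkd1 KO (homozygous in their titles) and 3 Pkd1-line controls. Both control groups have WT as their genotype label but het in their titles, and the titles of all 4 groups name the Hox driver. Neither the deleted exons nor the origin of the replicates (embryo, litter or pool) is given, so each p-value reflects spread among libraries that could be technical. Total counts were 16293803 to 23761716 in libraries labelled Cep120 KO, 18200456 to 27475859 in the controls of that line, 11347628 to 27967540 in Pkd1 KO libraries, and in the controls of the Pkd1 line 22061652 to 23181179.

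The ureteric bud is the epithelial outgrowth of the nephric duct that branches into the kidney and forms the collecting ducts. Centriole assembly requires Cep120, and loss of polycystin-1, the product of Pkd1, causes dominant polycystic kidney disease. The 6 genes share no pathway. Arg2 is the mitochondrial arginase, which cleaves arginine to ornithine and urea and so feeds proline and polyamine synthesis. Akr1c19 is a mouse member of the AKR1C branch of the aldo-keto reductases, cytosolic enzymes that reduce carbonyl groups of steroids and other compounds. Mogat2 joins a fatty acid to monoacylglycerol, a step of fat resynthesis best known from the intestine. Car8 is a carbonic anhydrase-related protein without carbonic anhydrase activity that binds the IP3 receptor, a calcium channel of the endoplasmic reticulum. Cela1 is a serine protease of the elastase family, known in rodents as a digestive enzyme of the pancreas. Tmed6 belongs to the p24 (TMED) family, membrane proteins that sort cargo between the endoplasmic reticulum and the Golgi.

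Of the 6 genes, 3 had a promoter sequence in the RefSeq table of GRCm38.p6, namely Tmed6, Akr1c19 and Cela1. Each sequence runs from 250 bases before to 50 bases after the start site, 5′ to 3′ on the gene's strand, and is shown because the choice of the genes did not use it. Capitals mark, in Tmed6 and Akr1c19, matches to the HNF1 motif (GTTAAT, any base, then its reverse complement ATTAAC) with up to 3 mismatches and, in Cela1, the TATA box TATAAA. The windows are chr8:107065595-107065894 on the minus strand for Tmed6, chr13:4233490-4233789 on the plus strand for Akr1c19 and chr15:100687871-100688170 on the minus strand for Cela1.
Tmed6: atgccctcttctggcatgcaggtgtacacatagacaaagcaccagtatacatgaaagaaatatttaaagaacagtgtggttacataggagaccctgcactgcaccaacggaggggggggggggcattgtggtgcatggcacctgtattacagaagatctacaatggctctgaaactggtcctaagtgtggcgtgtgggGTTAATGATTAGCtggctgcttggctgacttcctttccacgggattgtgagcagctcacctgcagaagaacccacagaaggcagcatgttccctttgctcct
Akr1c19: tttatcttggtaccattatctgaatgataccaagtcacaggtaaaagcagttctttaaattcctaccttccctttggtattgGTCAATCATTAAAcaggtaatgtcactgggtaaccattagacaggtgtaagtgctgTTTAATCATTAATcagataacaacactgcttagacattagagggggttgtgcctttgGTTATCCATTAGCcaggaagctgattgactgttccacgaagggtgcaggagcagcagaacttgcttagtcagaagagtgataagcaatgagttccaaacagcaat
Cela1: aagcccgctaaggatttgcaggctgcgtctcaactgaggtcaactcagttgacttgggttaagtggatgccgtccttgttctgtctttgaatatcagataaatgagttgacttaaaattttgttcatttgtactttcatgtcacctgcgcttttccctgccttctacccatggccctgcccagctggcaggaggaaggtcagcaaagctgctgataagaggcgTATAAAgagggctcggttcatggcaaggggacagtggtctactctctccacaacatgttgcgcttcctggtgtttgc

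The Tmed6 promoter held GTTAATGATTAGC at -52 from the start site, with 1 mismatch to the HNF1 motif. The Akr1c19 promoter held 3 matches, GTCAATCATTAAA at -168 and TTTAATCATTAAT at -112 with 2 mismatches each, and GTTATCCATTAGC at -55 with 3 mismatches. Among the 32851 promoters of the table, 0.207% held a match with at most 1 mismatch, 1.36% with at most 2, 8.33% with at most 3, and 0.131% held 3 or more matches. This motif was searched on both strands after the sequences had been read. A further 7 shorter motifs were searched on both strands, namely TATAAA (the TATA box), CCAAT (the CCAAT box), GGGCGG (the GC box, in 35.7% of promoters), ACGTG (the core of the hypoxia response element, 19.6%), AGATAA (of the GATA factors), TGACTCA (the AP-1 motif, 5.20%) and TGACGTCA (the cAMP response element, 1.79%). Cela1 held TATAAA at -27, found in 13.6% of promoters, and AGATAA at -155. Akr1c19 held CCAAT on the minus strand at -172, found in 37.4% of promoters and next to its first HNF1 match, and AGATAA at 3 places, a motif in 11.2% of promoters. Tmed6 held none of the 7. A match of letters is a description and not a binding site. No motif was found in all 3 promoters.

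The members lie on 6 chromosomes in GRCm38 (GENCODE M21). Arg2 lies on chr12:79130777-79156301 (plus strand), Akr1c19 on chr13:4228700-4252843 (plus), Mogat2 on chr7:99219084-99238619 (minus), Car8 on chr4:8143362-8239041 (minus), Cela1 on chr15:100674421-100687921 (minus) and Tmed6 on chr8:107061476-107065644 (minus). Of the 50-base stretches of the main Arg2 transcript, 21.2% also occur in transcripts of genes that overlap it on the other strand, mainly Vti1b. Because the cDNA was made without strand marks, reads of such stretches fit either gene. Vti1b, a vesicle fusion protein, was at 61.0, 46.7, 47.8, 62.1 and 65.9 CPM in libraries labelled Cep120 KO 2, 4, 5, 6 and 7, against 61.2, 52.3 and 63.7 CPM in controls 1, 2 and 3, so its groups overlap. The main transcripts of the other 5 genes share at most 1.58% of their 50-base stretches with other genes.

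Libraries 4 to 7 labelled Cep120 KO had TMM scaling factors of 1.15 to 1.32, whereas the other 10 libraries lay between 0.862 and 0.966. Cep120 itself was at 15.6 ± 5.33 CPM (SD, n = 5) in libraries labelled Cep120 KO against 8.82 ± 2.18 CPM (SD, n = 3) in their controls, so its transcripts do not check that label. Pkd1 was at 2.50 ± 0.160 CPM in Pkd1 KO against 3.92 ± 0.635 CPM in its controls (SD, n = 3 each). Six2, which defines nephron progenitors, was at 127 and 85.9 CPM in libraries 6 and 7 and at most 1.53 CPM in the other 12. In libraries 6 and 7 the ureteric markers Gata3 (152 and 243 CPM), Ret (34.4 and 41.1 CPM) and Cdh1 (20.1 and 61.8 CPM) were below every other library. In libraries 4 and 5 Gata3 (476 and 523 CPM) and Cdh1 (305 and 338 CPM) were above the Cep120-line controls, which had 315 to 350 and 107 to 146 CPM. CPM below are counts scaled to a common effective library size with TMM.

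Arg2 was the most abundant of the 6. It was at 144, 59.5, 60.4, 19.4 and 31.5 CPM in libraries labelled Cep120 KO 2, 4, 5, 6 and 7, against 206, 200.0 and 161 CPM in controls 1, 2 and 3. Every KO library lay below every control, library 2 only slightly so and library 6 the furthest. As shares of the control mean the KO libraries held 76.4, 31.5, 32.0, 10.3 and 16.7%. The fitted log2 difference was -1.59 (SE 0.44). With library 2 as the sole KO library it was -0.37, and without libraries 6 and 7 it was -1.11.

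Akr1c19 was at 9.04, 13.6, 10.4, 1.43 and 5.72 CPM in libraries labelled Cep120 KO 2, 4, 5, 6 and 7, against 36.8, 15.3 and 31.2 CPM in controls 1, 2 and 3. The groups did not overlap, but control 2 lay just above KO library 4, and the controls themselves spread more than those of any other member (SD 40.2% of their mean). The value of library 6 rests on 40 reads. The fitted log2 difference was -1.79 (SE 0.55), -1.59 with library 2 as the sole KO library and -1.33 without libraries 6 and 7. Scaled by library total alone, library 4 was above control 2, at 15.7 against 13.6 CPM.

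Mogat2 had the tightest values. It was at 6.55, 5.91, 5.58, 4.79 and 3.40 CPM in libraries labelled Cep120 KO 2, 4, 5, 6 and 7, against 15.7, 13.6 and 14.7 CPM in controls 1, 2 and 3. The KO libraries held 23.2 to 44.7% of the control mean, and on this scale Mogat2 is the member in which every KO library was under 50% of every control. Scaled by library total this did not hold, with KO libraries at up to 56.5% of a control. The fitted log2 difference was -1.48 (SE 0.21), with the smallest SE of the 6. It was -1.14 with library 2 as the sole KO library, -1.29 without libraries 6 and 7, and -1.11 when scaled by library total.

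Car8 was the least abundant. It was at 4.19, 4.26, 5.87, 0.715 and 2.80 CPM in libraries labelled Cep120 KO 2, 4, 5, 6 and 7, against 7.10, 11.5 and 13.0 CPM in controls 1, 2 and 3. The groups did not overlap, with KO library 5 and control 1 nearest to each other, and library 6 rests on 20 reads. The fitted log2 difference was -1.57 (SE 0.45), -1.31 with library 2 as the sole KO library and -1.14 without libraries 6 and 7. Scaled by library total alone, library 5 was above control 1, at 6.77 against 6.13 CPM.

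Cela1 was at 15.2, 6.66, 5.66, 3.04 and 5.34 CPM in libraries labelled Cep120 KO 2, 4, 5, 6 and 7, against 27.3, 19.2 and 20.1 CPM in controls 1, 2 and 3. All KO libraries lay below all controls, with library 2 more than 2-fold above the other 4. The fitted log2 difference was -1.64 (SE 0.37), but -0.52 with library 2 as the sole KO library and -1.29 without libraries 6 and 7.

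Tmed6 was at 25.5, 13.53, 13.1, 5.65 and 6.96 CPM in libraries labelled Cep120 KO 2, 4, 5, 6 and 7, against 59.6, 43.4 and 34.8 CPM in controls 1, 2 and 3. The groups did not overlap, and libraries 6 and 7 were again lowest. The fitted log2 difference was -1.83 (SE 0.37), the lowest of the 6. It was -0.83 with library 2 as the sole KO library and -1.41 without libraries 6 and 7.

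**Figure D1:**
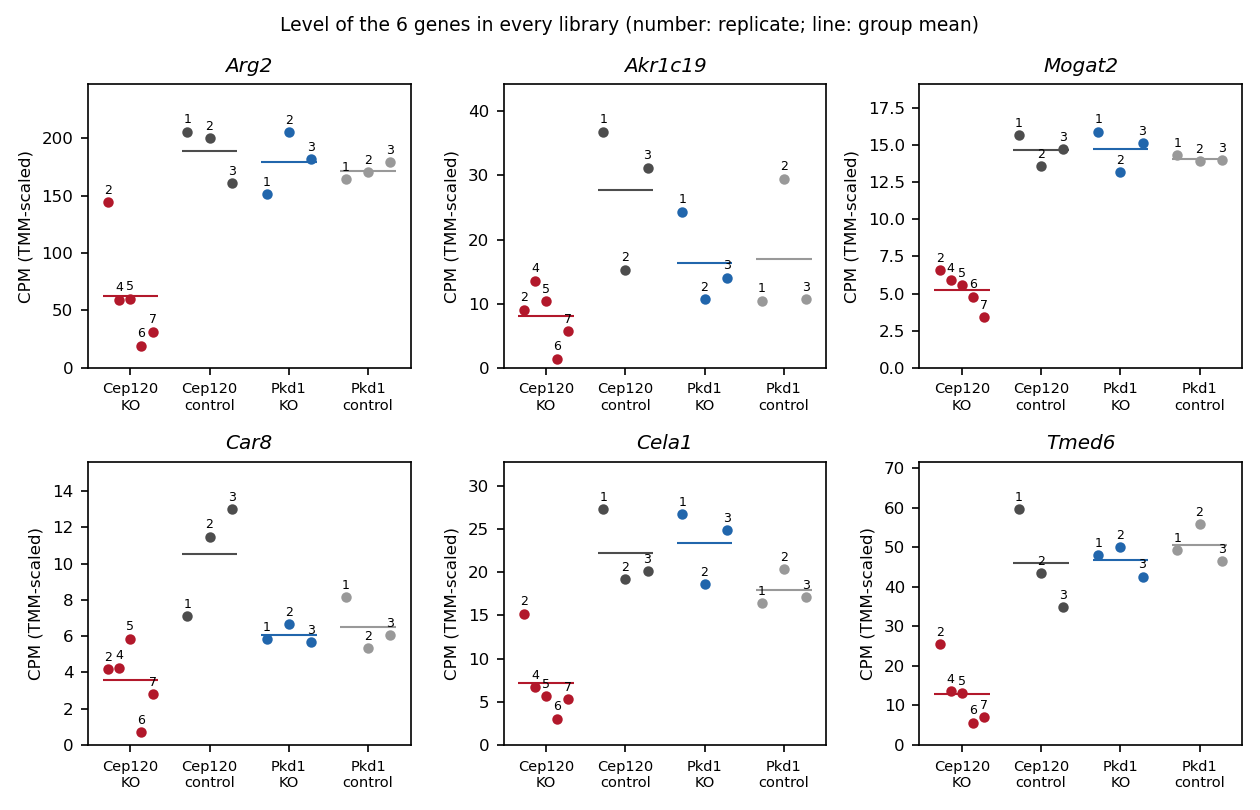
Level of each gene in TMM-scaled CPM (vertical axis, linear, from 0) in the 14 libraries, with each point a library, its replicate number beside it and a line at the group mean. For all 6 genes the 5 libraries labelled Cep120 KO lie below the 3 Cep120-line controls, and the 2 groups of the Pkd1 line overlap.

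In all 6 genes library 6 or 7 was lowest, and these are the libraries with high Six2 and low Gata3, Ret and Cdh1. In libraries 4 and 5, where Gata3 and Cdh1 were above the controls, the members held 25.5 to 55.7% of the control mean. Ureteric markers did not all go the same way there. Summed ureteric trunk markers (14 genes) were at 1056 and 1146 CPM in libraries 4 and 5, against 1667 to 1885 CPM in the controls. Library 2 had 1922 CPM of them, and libraries 6 and 7 had 431 and 741 CPM. Summed ureteric tip markers (13 genes) were at 1155 and 1197 CPM in libraries 4 and 5, against 1085 to 1113 CPM in the controls. Summed ureteric identity markers (15 genes) were at 1294 to 3811 CPM in libraries labelled Cep120 KO, against 2489 to 2632 CPM in their controls, and summed nephron progenitor markers (10 genes) at 29.5 to 898 CPM against 50.1 to 63.8 CPM. Summed leukocyte markers were at 22.6 to 40.7 CPM in libraries labelled Cep120 KO, against 88.4 to 99.5 CPM in their controls, and 3 of 12 were called lower by edgeR. Summed erythroid and platelet markers (12 genes) were at 5.57, 124, 140, 1129 and 743 CPM in libraries labelled Cep120 KO 2, 4, 5, 6 and 7, against 554, 7553 and 3833 CPM in controls 1, 2 and 3, so the groups overlap. Of 11 of these genes tested, 2 were called lower by edgeR. All 11 had a log2 difference below 0 (median -3.39), as did 44.59% of all genes tested. Gata1, an erythroid transcription factor, was at 0 in all libraries labelled Cep120 KO. Summed dissociation stress genes were at 5006 to 6625 CPM against 4229 to 4621 CPM, and 13 of 17 were called higher by edgeR. Over all genes tested, 6.26% were called lower and 8.4% higher. These calls rest on the libraries used. Without any 1 of the 3 Cep120-line controls, only 1 to 3 of all genes were called in each direction, and a fit of the 2 groups alone called none. No gene of the leukocyte and stress lists was at 0 in all libraries of either group. The part of these differences in the values of the 6 genes was not tested. In sorted bulk samples, fewer cells that express a gene and less RNA per cell cannot be told apart.

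Each of the 5 libraries labelled Cep120 KO can be set against each of the 3 controls, which gives 15 pairs per gene. The KO library was the lower in all 15 pairs for each of the 6 genes. It was at or below 50% of the control in 15 pairs for Mogat2, 13 for Tmed6, 12 each for Arg2, Akr1c19 and Cela1, and 11 for Car8. The pair nearest to equality was library 2 over control 3 for Arg2, with a log2 ratio of -0.16, and the pair farthest from it was library 6 over control 1 for Akr1c19, at -4.69. Mogat2 had the narrowest range, -2.21 to -1.05, and Akr1c19 the widest. Of all genes tested, 8.73% had all KO libraries below all controls. With scaling by library total, 4.36% did, and Arg2, Mogat2, Cela1 and Tmed6 were again lower in all 15 pairs, while Akr1c19 and Car8 were lower in 14. At or below 50% on that scale were 13 pairs for Tmed6, 12 each for Arg2 and Cela1, 10 each for Mogat2 and Akr1c19, and 9 for Car8. Of all genes tested, 6.26% were called lower and 8.4% higher in this contrast (1057 and 1418 genes, edgeR's quasi-likelihood test, adjusted p under 0.05). Scaling by library total gave 573 lower and 3835 higher, and a fit of the 2 groups alone called none in either direction. Between 222 genes (for Tmed6) and 371 genes (for Mogat2) had a lower fitted log2 difference than the member.

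**Figure D2:**
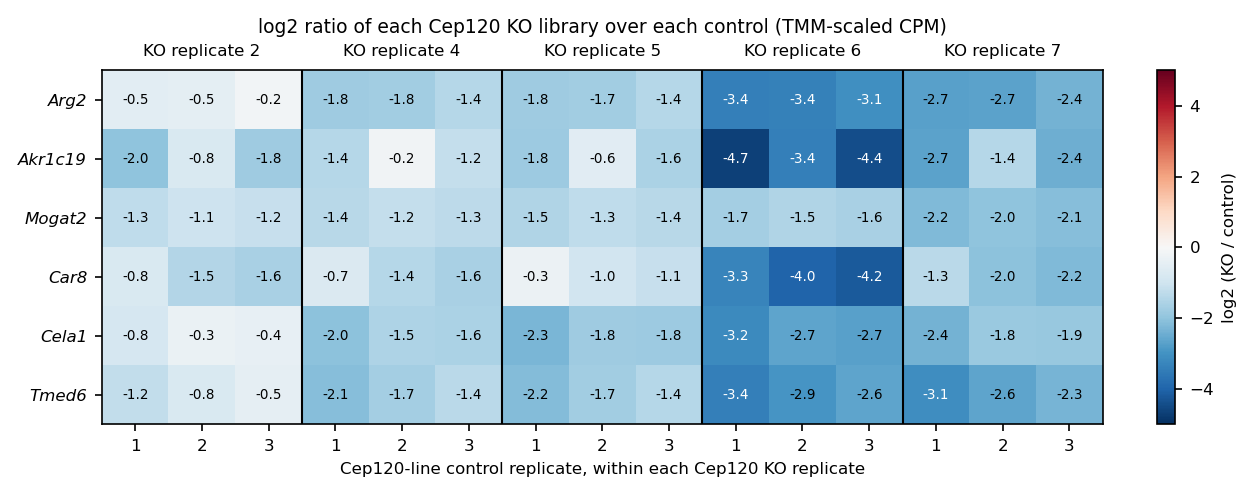
Log2 ratio of each library labelled Cep120 KO over each Cep120-line control (columns, grouped by KO library, with the control's replicate number below) for the 6 genes (rows), from TMM-scaled CPM. All 90 ratios are below 0, from -0.16 for Arg2 in library 2 over control 3 to -4.69 for Akr1c19 in library 6 over control 1.

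The order of the libraries differed between members. Library 2 held 76.4% of the control mean for Arg2, 68.5% for Cela1 and 55.5% for Tmed6, above libraries 4 to 7 in each. For Akr1c19 and Car8 it held 32.6 and 39.8% and lay below libraries 4 and 5. For Car8, however, library 4 was almost equal to library 2, at 40.5%. Across the 14 libraries the log2 CPM of Arg2, Cela1 and Tmed6 correlated with each other at 0.96 to 0.97 (Pearson), whereas Akr1c19 and Car8 correlated with the other members at 0.70 to 0.83. These correlations describe libraries that share the split of libraries 4 to 7 from the rest, and they follow from the choice of the genes in part.

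The Pkd1 line asks whether loss of another kidney disease gene in the same lineage goes with the same differences, and here the members were tested. Arg2 was at 151, 205 and 182 CPM in Pkd1 KO, against 164, 170 and 179 CPM in its controls. The log2 difference was 0.07 (SE 0.50, 95% interval -1.002 to 1.14, edgeR's quasi-likelihood test, adjusted p = 1). The groups overlap, and all but Pkd1 KO 1 lay in the range of the Cep120-line controls.

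Akr1c19 was at 24.3, 10.7 and 14.03 CPM in Pkd1 KO, against 10.46, 29.5 and 10.7 CPM in its controls. In each group 1 library stood above the rest, so the level varied more within the groups than between their means. The log2 difference was -0.05 (SE 0.63, 95% interval -1.41 to 1.30, edgeR adjusted p = 1). Mogat2 was at 15.9, 13.2 and 15.1 CPM in Pkd1 KO, against 14.3, 13.9 and 13.98 CPM in its controls, a log2 difference of 0.07 (SE 0.24, 95% interval -0.44 to 0.57, edgeR adjusted p = 1). This was the narrowest interval among the members.

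Car8 was at 5.83, 6.64 and 5.67 CPM in Pkd1 KO, against 8.16, 5.35 and 6.04 CPM in its controls, with a log2 difference of -0.11 (SE 0.51, 95% interval -1.21 to 0.99, edgeR adjusted p = 1). All libraries of the Pkd1 line held less Car8 than Cep120-line controls 2 and 3, and they spanned the levels of KO library 5 and control 1 of the Cep120 line. Cela1 was at 26.7, 18.6 and 24.8 CPM in Pkd1 KO, against 16.4, 20.4 and 17.1 CPM in its controls. Its log2 difference of 0.38 (SE 0.42, 95% interval -0.53 to 1.29) did not pass (edgeR adjusted p = 1). Tmed6 was at 47.9, 50.1 and 42.5 CPM in Pkd1 KO, against 49.2, 55.7 and 46.5 CPM in its controls, with a log2 difference of -0.11 (SE 0.42, 95% interval -1.001 to 0.78, edgeR adjusted p = 1).

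None of the 6 genes had all Pkd1 KO libraries on the same side of all controls, as 6.19% of all genes tested did with KO below and 4.88% with KO above. No gene of the 16876 was called in this contrast by edgeR (0%). At an unadjusted p under 0.05 there were 259 genes, and DESeq2 called 3 and limma-voom 1. The intervals of Akr1c19, Car8, Arg2 and Tmed6 reach a log2 of -1 or below, so this fit cannot exclude a difference of that size in Pkd1 KO. Its spread is estimated over the 4 groups together, and all 4 genes varied most in the libraries labelled Cep120 KO. The SD of log2 CPM there was 1.09 for Arg2, against 0.22 in Pkd1 KO and 0.063 in its controls. For Tmed6 it was 0.85 against 0.12 and 0.13, and for Akr1c19 1.25 against 0.60 and 0.85. The difference between the effects of the lines was not tested, since the Cep120 effect was used to choose the genes.

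**Figure D3:**
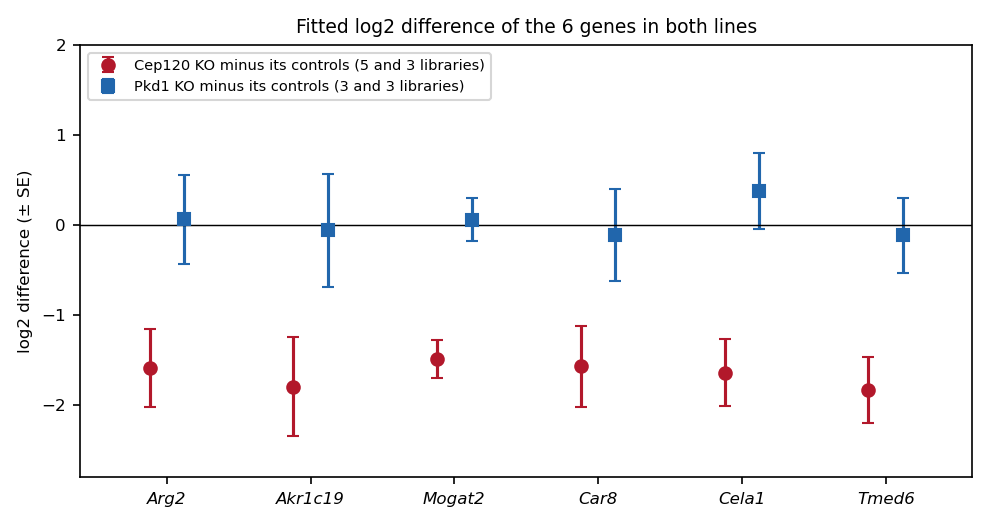
Fitted log2 difference with its SE (bars) for the 6 genes, in libraries labelled Cep120 KO minus their controls (circles) and in Pkd1 KO minus its controls (squares). The Cep120 values run from -1.83 to -1.48 and chose the genes, while the Pkd1 values run from -0.11 to 0.38 and none passed the test.

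The authors' TPM values, which divide by transcript length, allow levels to be compared between genes. In the 6 controls of both lines the mean TPM was 126 for Arg2, 60.3 for Tmed6, 35.2 for Cela1, 16.9 for Akr1c19, 7.81 for Mogat2 and 2.21 for Car8. In the libraries labelled Cep120 KO the means followed the same order, at 57.9 ± 30.2 TPM for Arg2, 21.5 ± 8.36 for Tmed6, 16.8 ± 8.19 for Cela1, 8.20 ± 4.41 for Akr1c19, 4.03 ± 0.673 for Mogat2 and 1.35 ± 0.756 for Car8 (SD, n = 5). Tmed6 and Cela1 were within an SD of each other there, as were Akr1c19 and Mogat2. Arg2 stood above 95.5% of 21936 protein-coding genes in the mean TPM of the controls, and Car8 above 60.1%. On the TPM scale Akr1c19 and Car8 overlapped between the Cep120-line groups. KO library 4 had 13.1 TPM of Akr1c19 against 10.9 TPM in control 2, and KO library 5 had 2.35 TPM of Car8 against 1.61 TPM in control 1.

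The transcript table shows which transcripts carried the reads. Arg2, Tmed6 and Car8 have a single transcript in it, and all Mogat2 reads were assigned to its full-length transcript of 6 exons. For Akr1c19, 86.2% of reads went to the transcript of 9 exons, whose start at 4233740 on chromosome 13 is the start site of the promoter printed above, and 12.04% to that of 10 exons, which starts upstream of it. For Cela1 the full-length transcript, with 8 exons and the start site of the printed promoter, received 4.53% of the reads over all libraries (0 to 14.1% per library). Instead 91.5% of the reads (81.3 to 96.9% per library) were assigned to 3 shorter transcripts, which have 4, 3 and 3 exons and begin 5959, 6338 and 8855 bases downstream of that site.

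These inner transcripts carried the lower level of Cela1. They had 88.1 to 96.9% of the gene's reads in libraries labelled Cep120 KO against 92.9 to 93.7% in their controls, so the split did not separate the groups. The full-length transcript had 0 to 12.4 estimated reads in those KO libraries, against 3.98 to 23.3 in the controls, too few to compare. Reads assigned among overlapping transcripts are estimates, so the shares of the 3 shorter ones are given together.

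**Figure D4:**
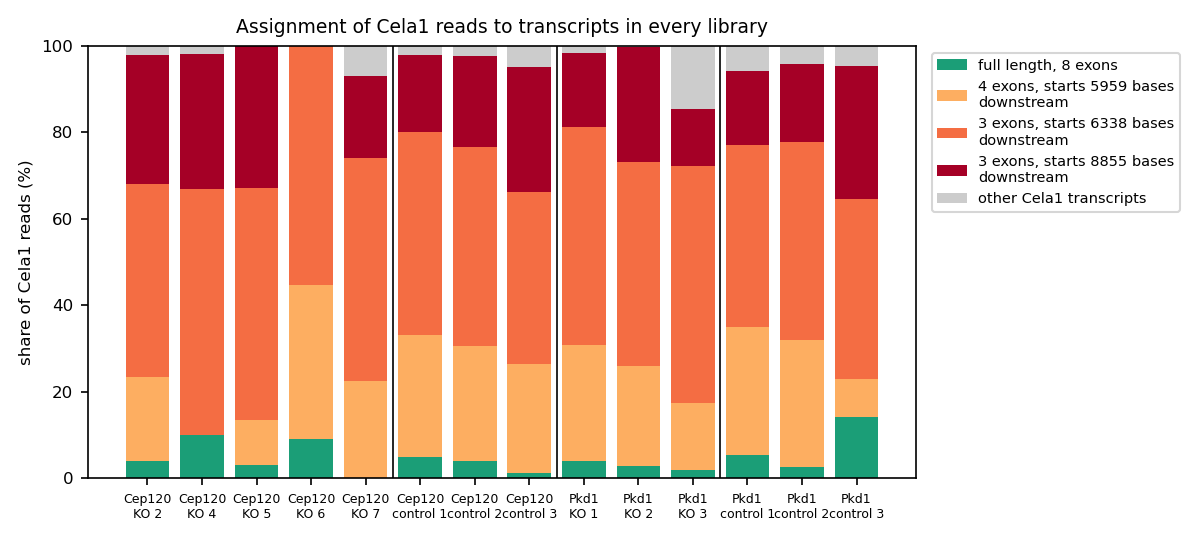
Share of the estimated Cela1 reads (vertical axis, percent) assigned to each annotated transcript in each of the 14 libraries. The 3 shorter transcripts that begin 5959 to 8855 bases downstream of the full-length start make up 81.3 to 96.9% of every bar.

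Genes of the same pathways and families were read from 9 lists that do not hold the members. The counts below are of genes called higher or lower in libraries labelled Cep120 KO than in their controls (edgeR, adjusted p under 0.05), against 8.4% called higher and 6.26% called lower over all genes tested. The median log2 difference of all genes was 0.12, and it was 0.51 with scaling by library total. Of the 134 genes of the 9 lists tested, none was called in the Pkd1 line by edgeR, DESeq2 or limma-voom, and none had an unadjusted p under 0.05.

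Of the arginine and polyamine list, 3 of 26 genes fell and none rose, with a list median of -0.20. Oaz1, antizyme, which limits polyamine synthesis and uptake, was at 1486 ± 459 CPM (n = 5) against 2731 ± 205 CPM (n = 3) (log2 -0.88, SE 0.20, edgeR adjusted p = 0.0292). Oat, ornithine aminotransferase, which takes up the ornithine made by arginase, was at 180 ± 61.4 CPM against 354 ± 82.8 CPM (log2 -0.97, SE 0.24, edgeR adjusted p = 0.0305). Gatm, which uses arginine for creatine synthesis, was at 10.7 ± 4.59 CPM against 23.0 ± 3.88 CPM (log2 -1.10, SE 0.29, edgeR adjusted p = 0.0315). Arg1, the cytosolic arginase, was at 2.27 CPM in the mean against 0.256 CPM and did not pass (edgeR adjusted p = 0.146), which is named after its value was seen.

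Of 13 other aldo-keto reductases tested, Akr1c13 and Akr1a1 fell and none rose (median -0.48). Akr1c13, of the same branch as Akr1c19, was at 8.65, 6.23, 5.00, 2.07 and 2.64 CPM in libraries labelled Cep120 KO 2, 4, 5, 6 and 7, against 11.7, 13.0 and 12.8 CPM in the controls (log2 -1.35, SE 0.37, edgeR adjusted p = 0.0329). Akr1a1, which reduces aldehydes broadly, was at 683 ± 80.9 CPM against 974 ± 14.6 CPM (log2 -0.51, SE 0.14, edgeR adjusted p = 0.0322). Of 17 steroid and retinoid reductases 1 fell, the mitochondrial enzyme Hsd17b10 (log2 -0.76, SE 0.21, edgeR adjusted p = 0.0345), and the list median was -0.21.

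Of the triacylglycerol genes around Mogat2, 2 of 24 rose and none fell, with a list median of -0.15. Lipe, hormone-sensitive lipase, was at 14.8 ± 1.63 CPM against 6.03 ± 1.16 CPM (log2 1.30, SE 0.25, edgeR adjusted p = 0.029). Lpin2, a phosphatidate phosphatase, was at 11.5, 32.8, 34.1, 73.2 and 82.7 CPM in libraries labelled Cep120 KO 2, 4, 5, 6 and 7, against 15.7, 17.0 and 10.4 CPM in the controls (log2 1.71, SE 0.48, edgeR adjusted p = 0.035). Library 2 lies among the controls for Lpin2. Mogat1, Dgat1 and Dgat2, which act at the same or the next step as Mogat2, were not called.

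Of 9 other p24 family genes tested, Tmed3 and Tmed1 fell and none rose. All 9 had a log2 difference below 0, with a median of -0.50, and 6 of 9 did with scaling by library total (median -0.15). Over all genes tested, 44.59% were below 0, and 26.65% with scaling by library total. Tmed3 was at 72.5 ± 17.4 CPM against 125 ± 9.75 CPM (log2 -0.79, SE 0.18, edgeR adjusted p = 0.029) and Tmed1 at 140 ± 20.2 CPM against 190 ± 9.20 CPM (log2 -0.44, SE 0.14, edgeR adjusted p = 0.0493). Tmed6 had a log2 difference of -1.83 beside them. Among 24 genes of the COPI and COPII coats, which p24 proteins bind, Sec24b rose (log2 0.76, SE 0.24, edgeR adjusted p = 0.0495), Copg2 fell (log2 -0.60, SE 0.17, edgeR adjusted p = 0.0383) and the median was -0.12.

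For Car8, the comparison lists were the carbonic anhydrases and the IP3 receptors with their regulators. Of 10 carbonic anhydrases tested 1 rose and none fell (median 0.12). Car15 had 2, 10, 3, 18 and 36 reads in libraries labelled Cep120 KO 2, 4, 5, 6 and 7 and 0 in all 3 controls (edgeR adjusted p = 0.029). It passed the low-count filter through KO libraries 4, 6 and 7 alone, so this call is not independent of the filter. Without any of them it was not tested. Pooled over the KO libraries it was at least 11.3-fold higher with a floor of 3 counts over the control group (0.052 CPM). KO libraries 2 and 5 were at 0.131 and 0.123 CPM, and library 7, the highest, at 1.14 CPM. Of 8 IP3 receptor genes edgeR called none (3 at an unadjusted p under 0.05), while DESeq2 called 1 and limma-voom 5. Over all 16876 genes tested, 5680 had an unadjusted p under 0.05 in edgeR. DESeq2 called 2491 genes higher and 1708 lower, and limma-voom 3605 and 3060. In the IP3 receptor list the lowest edgeR adjusted p was that of Itpr1, the receptor that Car8 binds. It was at 11.2 ± 3.11 CPM against 6.34 ± 1.00 CPM (log2 0.83, SE 0.31, edgeR adjusted p = 0.0841). Around Cela1, 3 of 15 digestive proteases and inhibitors had enough reads to be tested. EdgeR and DESeq2 called none, while 1 had an unadjusted p under 0.05 and limma-voom called 1, beside the same counts over all genes. The pancreatic genes Cela2a, Prss1, Prss2 and Cpb1 had 0 reads in all 14 libraries.

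The 13 called genes rest on the libraries used. Leaving out any of the 3 Cep120-line controls, or KO library 7, left none of the 13 called, as did a fit of the 2 groups alone. Without KO library 6 there was 1, without KO library 5 there were 6, without KO library 4 there were 9 and without libraries 4 and 5 together 7. Without libraries 6 and 7 together there were 6 of the 12 that were still tested. All 13 were called without KO library 2, and 9 with no filter on low counts. Without any single library of the Pkd1 line 6 to 8 were called, and with offsets for transcript length and GC content, or with library 2 as the sole KO library, none was. DESeq2 and limma-voom called all 13, and scaling by library total 10, under which Akr1a1, Tmed1 and Copg2 did not pass.

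**Figure D5:**
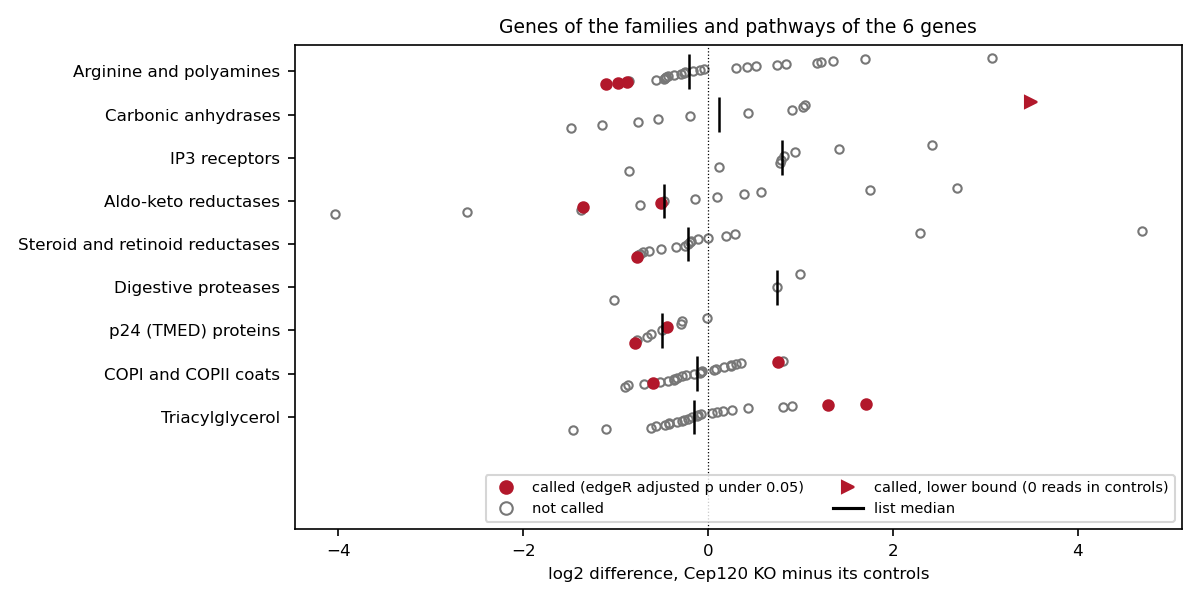
Fitted log2 difference in libraries labelled Cep120 KO minus their controls (horizontal axis) for each tested gene of the 9 lists (rows, with points spread vertically for visibility). Filled points and the triangle together are the 13 genes called, with the triangle being Car15 drawn at its lower bound. Vertical bars are list medians, which run from -0.50 for the p24 genes to 0.81 for the IP3 receptors.

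For each member, the protein-coding genes with the most similar pattern were ranked by Pearson correlation of log2 CPM over the 14 libraries, among 13323 genes, as a description. The 3 most like Arg2 were Tpd52 (0.99), Bccip (0.98) and Eif2d (0.98). Tpd52, tumour protein D52, was at 121, 86.7, 84.6, 48.3 and 61.7 CPM in libraries labelled Cep120 KO 2, 4, 5, 6 and 7, against 127, 135 and 128 CPM in the controls, so library 2 again lay nearest to them. The 3 most like Akr1c19 were Smim26, Sostdc1 and Pip4p2 (0.93, 0.92 and 0.90). Sostdc1, a secreted antagonist of BMP and Wnt signals, was highest within each Pkd1-line group in the same library as Akr1c19. It was at 43.7 CPM in Pkd1 KO 1 and 57.3 CPM in Pkd1-line control 2. Pkd1-line control 1 was close to the former at 43.4 CPM, though its Akr1c19 was at 10.46 CPM.

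Mogat2 was most like Mfsd3, Hddc2 and Grhpr (0.97, 0.96 and 0.96), the last of them glyoxylate reductase. Car8 was most like Cndp1, Crip1 and Ddost (0.93 each), of which Cndp1 is a dipeptidase. Cela1 was most like Cmpk2, Pgk1 and Commd5 (0.98 each), of which Cmpk2 is a mitochondrial nucleotide kinase and Pgk1 a glycolytic enzyme. Tmed6 was most like Shisal2b, Pnp and Arg2 (0.98, 0.98 and 0.97). Arg2 was thus among the 3 genes most like Tmed6, while Tmed6 was not among the 3 most like Arg2.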

How the data were processed

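Estimated counts per gene and per transcript, and TPM per gene, were deposited by the authors for 14 bulk RNA-seq libraries; the submitters' processing notes name DRAGEN and mm9, with no version or role, while the counting step and annotation are not stated there. Per the labels' protocols, kidneys were dissociated with trypsin and collagenase, GFP-positive cells were sorted, and a SMARTer Ultra Low kit gave cDNA without molecular identifiers or strand marking. Whole numbers made up 88.4 to 91.6% of a library's values. The deposited estimated counts were rounded, and 287 repeated lines of 55774 were dropped. The authors' TPM served to compare levels between genes. Positions, exons and shared 50-base stretches come from GENCODE M21 on GRCm38, which holds 108877 of 109963 transcript identifiers of the table.

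Counts were analysed in R 4.3.3 with edgeR 4.0.16: filterByExpr with a minimum count of 10, TMM scaling, and a quasi-likelihood fit of 4 group means over all 14 libraries with 10 residual degrees of freedom. Calls were made under 0.05 after Benjamini-Hochberg adjustment over the 16876 genes tested. In data simulated for the Pkd1 comparison, the fit recovered 11% of the 2-fold changes and 65% of the 4-fold changes put in. Alternatives were RLE size factors, no filter, 2-group fits, DESeq2 1.42.0, limma 3.58.1 with voom and quality weights, leaving out libraries, offsets for length and GC content, the replicate number as a block, and, chosen after seeing the data, scaling by library total.

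The members and the gene lists were chosen with earlier results of these data known. Named besides the members and the targeted genes were, from each list, up to 3 called genes with the smallest adjusted p in each direction (where none was called, that with the smallest p), the 3 genes most correlated with each member, and defining markers of cell types; Vti1b, Arg1, Mogat1, Dgat1, Dgat2 and the pancreatic genes at 0 are exceptions, named for their place or family. The gene that this rule names from the digestive protease list is not reported here. Intervals cover the fitted error alone. Promoters come from RefSeq (GRCm38.p6); those of Arg2, Car8 and Mogat2 were not analysed here.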

Additional observations from a re-analysis of the deposited data

Results flagged for a closer look

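Cela1 was flagged because its direction differed between the lines: each Pkd1 KO library lay above the mean of the Pkd1-line controls (log2 difference 0.38, SE 0.42), while each library labelled Cep120 KO lay below the mean of its controls (-1.64, SE 0.37). The difference between the lines was not tested, and the Pkd1 value did not pass (edgeR adjusted p = 1). No other value of the 6 genes met the rules for a closer look.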

How the results depend on the processing

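Each of the 6 genes stayed below its controls in the Cep120 contrast under all alternatives run. The values moved beyond the spread between replicates with library 2 as the sole KO library (Arg2 -0.37, Mogat2 -1.14, Cela1 -0.52 and Tmed6 -0.83, log2) and, for Mogat2, with scaling by library total (-1.11). Leaving out 1 library at a time gave -2.15 to -1.36 for Arg2, -2.09 to -1.52 for Akr1c19, -1.58 to -1.36 for Mogat2, -1.83 to -1.30 for Car8, -2.10 to -1.44 for Cela1 and -2.23 to -1.60 for Tmed6. In the Pkd1 line no member passed under any alternative (lowest edgeR, DESeq2 or limma adjusted p = 0.806), and the leave-one-out values were -0.042 to 0.18 for Arg2, -0.45 to 0.62 for Akr1c19, 0.0081 to 0.14 for Mogat2, -0.23 to 0.092 for Car8, 0.27 to 0.52 for Cela1 and -0.17 to -0.031 for Tmed6. Akr1c19 turned positive there with the replicate block (0.051) and with length and GC offsets (0.013). Same-numbered Pkd1-line libraries correlated at -0.045, -0.029 and -0.124 in their deviations from the group means, and the block called 0 genes. With so few libraries per group this cannot show whether same-numbered libraries share an origin. No paired analysis of the Cep120 line was possible because its groups share 1 number, 2. Genes called higher and lower in the Cep120 contrast numbered 0 and 0 in the 2-group fit, 2491 and 1708 with DESeq2, 3605 and 3060 with limma-voom, 551 and 477 without libraries 6 and 7, 1430 and 635 without libraries 4 and 5, 2 and 3 with library 2 alone, 932 and 468 with libraries 4 and 5 summed, 31 and 26 with length and GC offsets, and 3835 and 573 with scaling by library total. Leaving out 1 library gave 1 to 3224 higher and 1 to 2495 lower, with 1 and 1, 3 and 3, and 1 and 2 without controls 1, 2 and 3, 5 and 3 without KO 7, and 194 and 120 without KO 6. In the Pkd1 line 3 genes were called in the 2-group fit, 3 with DESeq2 and 1 with limma-voom, and 0 to 0 with 1 library left out. Lpin2 (-0.31) and Sec24b (-0.082) reversed with library 2 as the sole KO library. Scaled by library total, the list medians of the arginine (0.18), steroid and retinoid (0.13), coat (0.22) and triacylglycerol (0.24) genes were above 0. The cause of these changes was not tested.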
